A study of Rattus norvegicus with 6 samples.

Results

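Derlin-1 and 8 of its partners in endoplasmic reticulum (ER)-associated degradation (ERAD) were read in RNA-seq of adult rat hippocampal neural stem cells (NSCs). The members were chosen by gene symbol, by a rule that uses no measured value but was written with earlier results of these data known: the derlins *Derl1* and *Derl3*, the Hrd1 ubiquitin ligase *Syvn1* with *Sel1l* and *Herpud1*, the ubiquitin-conjugating enzyme *Ube2j1*, the p97 ATPase *Vcp*, and *Edem1* and *Os9*, which read glycans in the ER lumen. All 9 were found among the 17315 genes of the tables, and all 9 had the mean of at least 1 TPM (a transcript's share of all transcripts, corrected for its length) that was asked of a tested gene, as did 10331 genes in all. Because TPM is per length, levels can be compared between genes, but it keeps no read numbers, and the depth of each sample is therefore unknown.

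The cells were HCN, a cloned line from the hippocampus of adult rats. They were transfected with a Stealth control duplex (siControl, 3 samples) or with a Stealth duplex against *Derl1* (siDerl1, 3 samples), and both groups had been brought towards quiescence with BMP4 for 2 days when RNA was taken. One line and 1 duplex per group were used, so an effect of the duplex itself and one of less *Derl1* cannot be told apart. The labels number the samples 1 to 3 in each group and do not say whether they were separate cultures, so p-values measure the spread between these samples, which may be technical.

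In ERAD, proteins that fail to fold are recognised in the ER, passed through the membrane and degraded by the proteasome in the cytosol. Lectins such as Os9 and the Edem proteins mark glycoproteins whose sugars have been trimmed, the membrane ligase Hrd1 with its adaptor Sel1l forms the exit site and adds ubiquitin, and derlins, relatives of rhomboid proteases without protease activity, line the path and hold p97, which pulls the client out. Many of these genes are raised by ATF6 and XBP1 when unfolded proteins accumulate, through short stress elements in their promoters.

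Such elements were looked for in the RefSeq promoter windows of the assembly GRCr8, over the 250 bases before each gene's start and on both strands. Windows were used for 7 of the 9 members, and those of *Derl1* and *Os9* were not used. The searched letters were the ER stress element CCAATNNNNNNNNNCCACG, its second form ATTGGNCCACG and the unfolded protein response element TGACGTGG, which holds CCACG on its other strand. *Derl3* held the first (0.0657% of all 33469 windows did), *Herpud1* the second (0.0418%), and *Ube2j1* and *Vcp* the third (0.52%). The windows of *Syvn1*, *Sel1l* and *Edem1* held none of these letters, and each had a CCAAT box, as did 34.0% of all windows. A match describes letters and is no proof of a site. The 4 stretches are printed because they carry a whole element in genes whose levels are given below, 5′ to 3′ on the gene's strand, with the fixed letters of the element in capitals. They lie at chr19:10614781-10614871 (minus strand, *Herpud1*), chr20:12766561-12766659 (minus strand, *Derl3*), chr5:52218691-52218778 (plus strand, *Ube2j1*) and chr5:62025563-62025637 (minus strand, *Vcp*).
Herpud1: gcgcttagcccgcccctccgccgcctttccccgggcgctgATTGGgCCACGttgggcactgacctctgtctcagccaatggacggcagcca
Derl3: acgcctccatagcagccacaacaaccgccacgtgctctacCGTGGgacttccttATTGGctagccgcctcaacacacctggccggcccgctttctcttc
Ube2j1: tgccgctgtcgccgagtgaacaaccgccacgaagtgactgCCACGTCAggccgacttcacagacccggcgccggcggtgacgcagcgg
Vcp: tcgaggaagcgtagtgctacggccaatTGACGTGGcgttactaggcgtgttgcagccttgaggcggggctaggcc

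The tables were checked against the labelled cell type. Of 10 NSC markers, 9 had a mean of at least 1 TPM, among them *Vim*, *Sox2* and *Nes*, while *Prom1* was listed at 0. *Gfap*, an intermediate filament of astrocytes and adult NSCs, was at 47.0, 27.7 and 28.9 TPM in siControl and at 66.3, 47.5 and 45.3 TPM in siDerl1 samples 1, 2 and 3, 0.62 higher on the log2 scale (limma, adjusted p = 0.704, and 0.0219 with a block for the sample number). *Nes* was at 0.831 of its siControl mean in siDerl1 NSCs, with groups that did not overlap (limma, adjusted p = 0.704, and 0.0899 with the block). The 4 expressed neuronal markers went both ways, with ratios of 0.719 for *Dcx*, 0.793 for *Syt1* and 0.965 for *Map2*, while *Tubb3*, the most abundant of them, was at 58.8, 74.9 and 70.4 TPM in siControl and at 83.2, 76.3 and 76.3 TPM in siDerl1 samples. Of 8 oligodendrocyte lineage markers, 7 were also expressed, with *Sox10* between 541 and 787 TPM and *Mog* listed at 0; their summed level lay between 1890 and 2240 TPM in siControl and between 1840 and 2390 TPM in siDerl1 NSCs. Within this sum *Pdgfra* was at 0.724 of its siControl mean and lower in all 3 pairs of the same number, and *Mbp* and *Cnp* were higher in all 3, each with overlapping groups. Markers of microglia summed to at most 9.36 TPM and those of endothelium to at most 1.12 TPM in any sample. Markers of fibroblasts and pericytes summed to between 1.22 and 2.00 TPM in siControl and to between 3.04 and 3.49 TPM in siDerl1 NSCs, with *Col3a1*, *Dcn*, *Lum* and *Rgs5* listed at 0 in all samples. Neuronal markers summed to between 145 and 176 TPM. The part of these levels in the results below was not tested. Samples of the same number deviated from their group means in a like way, most clearly those numbered 1 (correlation 0.70), so values are given by sample number. The deviations of siControl sample 2 were about as like those of siDerl1 sample 3 (0.34) as those of siDerl1 sample 2 (0.35). The pairing, and the block that uses it, was thus read from these data and is not stated by the labels.

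The 9 members spanned levels from about the median gene to the most abundant few percent, with *Derl3* as the exception. In siControl NSCs the order of mean TPM was *Vcp* (474), *Os9* (425), *Derl1* (127), *Herpud1* (84.3), *Syvn1* (62.3), *Sel1l* (53.3), *Ube2j1* (45.0), *Edem1* (42.2) and *Derl3* (2.07). Neighbours in this order had separate ranges over the 3 samples except for *Syvn1* and *Sel1l*, *Sel1l* and *Ube2j1*, and *Ube2j1* and *Edem1*. *Os9* lay at the 96.8th percentile of mean TPM among tested genes, with *Vcp* above it, *Derl1* at the 80.4th and *Edem1* at the 55.5th, whereas *Derl3* lay at the 4.03rd. In siDerl1 NSCs the order differed at 1 place, where *Derl1* stood below *Herpud1*. *Derl1*, at a mean of 63.2 TPM, then had a range that overlapped those of *Herpud1*, *Syvn1*, *Sel1l* and *Ube2j1*. In siControl NSCs it had been separate from all of these. The ranges of *Vcp* and *Os9* overlapped there too, although *Vcp* was the higher of both in all 3 siDerl1 samples. The dot plot of levels shows this shift of *Derl1* into the band of the ligase genes.

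**Figure D1:**
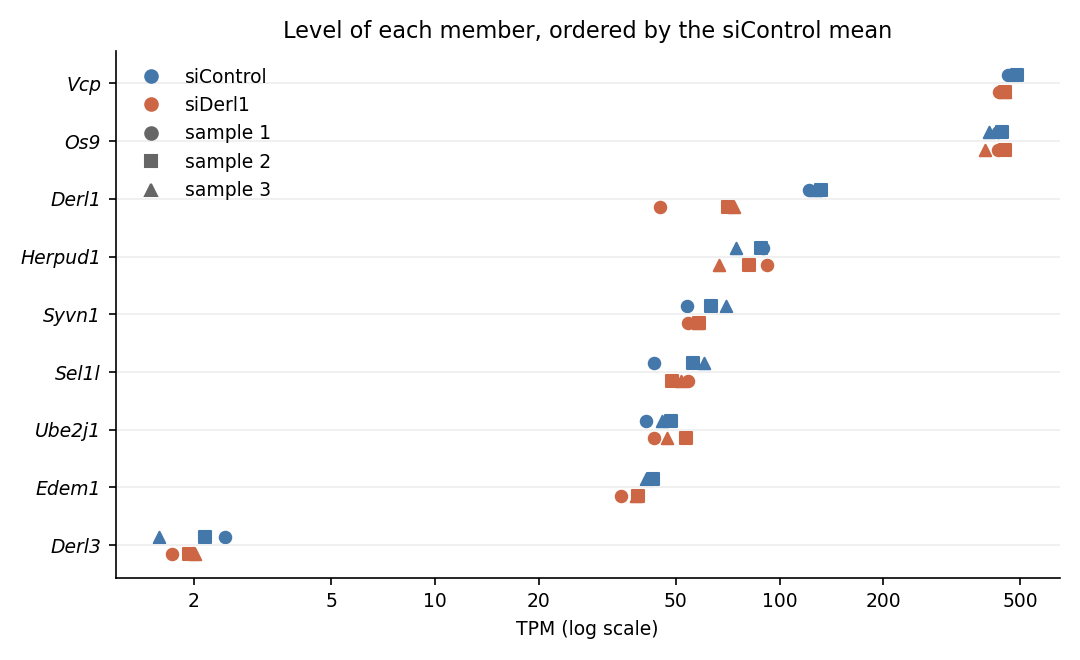
TPM of the 9 members on a log scale, ordered by the siControl mean, with siControl samples in blue, siDerl1 samples in orange and marker shapes for sample numbers. *Derl1* moves from between 122 and 132 TPM to between 44.9 and 74.0 TPM, and the other 8 genes keep their place on this scale.

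*Derl1* (NM_001014202), the targeted gene, was read first. It was at 122, 132 and 128 TPM in siControl samples 1, 2 and 3 and at 44.9, 70.8 and 74.0 TPM in the siDerl1 samples of the same numbers. The groups were far apart (two-sided exact permutation test over samples, p = 0.1, as low as 3 samples against 3 can go). Relative to the siControl sample of the same number, 36.9%, 53.7% and 58.0% of the *Derl1* transcript was left, so the knockdown was deepest in sample 1. In such bulk samples, less RNA in every cell and fewer cells with the usual level cannot be told apart. The siControl samples were close together, with a coefficient of variation of 4.09%, and the siDerl1 samples were not, with 25.3%.

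On the log2(TPM + 1) scale the fold change of *Derl1* was −1.03 (SE 0.18, 95% interval −1.45 to −0.61) in limma, a linear model across all tested genes. Its unadjusted p was 0.000626 and its adjusted p was 0.497 over 10331 genes. In this fit 0 genes had an adjusted p under 0.05 (0% of those tested), and 692 (6.70%) had an unadjusted one under 0.05. With a block for the sample number, which takes out what samples of 1 number share, the interval was −1.28 to −0.78 and the adjusted p was 0.00884, with 57 genes past the threshold (0.552%) and *Derl1* ranked 6th by p. Leaving out both samples numbered 1, a choice made after seeing the data, gave −0.83 with an adjusted p of 0.00545 and 35 genes past it. Of all tested genes, 19 had a log2 fold change as low as that of *Derl1* or lower, itself included. The blocked call was lost without the intensity trend (adjusted p = 0.229) and without the filter on low values (0.104). The call after adjustment thus depended on these choices too, while the direction did not. The unadjusted p of *Derl1* from limma was 6.53e-06 with the block and at most 0.00366 in any of the fits.

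The 5 genes most like *Derl1* over the 6 samples, by the root mean square difference of centred log2(TPM + 1) values, were *A3galt2* (0.105), *Akr1b8* (0.106), *Pde7b* (0.160), *Slc25a53* (0.172) and *Sdhaf3* (0.195), against a median of 0.576 over the other tested genes. All were low, with at most 12.8 TPM in any sample. *Sdhaf3*, an assembly factor of respiratory complex II, was at 9.30, 12.7 and 12.8 TPM in siControl and at 3.09, 4.86 and 4.45 TPM in siDerl1 NSCs (adjusted p = 0.421 from limma, 0.00884 with the block). *Akr1b8*, an aldo-keto reductase, was at 3.58, 5.03 and 4.10 TPM and at 1.12, 1.95 and 2.14 TPM (adjusted p = 0.704, and 0.0828 with the block). No member was among them, the nearest being *Edem1* at 0.464 (rank 683 of 10330).

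*Derl3* (NM_001109577), the derlin best known from secretory tissues under ER stress, was the only member near the detection limit. It was at 2.46, 2.16 and 1.58 TPM in siControl samples 1, 2 and 3 and at 1.73, 1.94 and 2.02 TPM in siDerl1 samples. The groups overlapped, and the pairs of the same number went both ways, by −0.34, −0.10 and 0.23 on the log2 scale. The log2 fold change was −0.07, with an interval from −0.56 to 0.41. Because adding 1 weighs heavily at such levels, this allows a TPM ratio between 0.521 and 1.5, and between 0.509 and 1.52 with the block. *Derl1* made up 98.4% ± 0.38 (SD, n = 3) of the summed *Derl1* and *Derl3* TPM in siControl NSCs and 96.3%, 97.3% and 97.3% in siDerl1 samples 1, 2 and 3. With the knockdown *Derl1* was still at least 25.9 times as abundant as *Derl3* in every sample. A difference of *Derl3* beside the lower *Derl1* was thus not detectable, within these wide bounds.

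The Hrd1 ligase core showed no change that passed the test. *Syvn1* (NM_001100739) encodes Hrd1, the RING ligase that also forms the exit channel. It was at 54.0, 63.1 and 69.9 TPM in siControl samples 1, 2 and 3 and at 54.4, 58.4 and 58.1 TPM in siDerl1 samples. Only siControl sample 1 lay as low as the siDerl1 samples, and the groups overlapped through it. *Sel1l* (NM_177933), the adaptor that stabilises Hrd1 and binds clients in the lumen, was at 43.3, 56.0 and 60.4 TPM and at 54.3, 48.8 and 51.8 TPM. Here too siControl sample 1 was the odd one, below every siDerl1 sample. *Herpud1* (NM_053523), a ubiquitin-like membrane protein that joins the Hrd1 complex and is itself short-lived, was at 89.8, 88.1 and 74.9 TPM and at 92.2, 81.7 and 66.6 TPM. Its samples followed their number, with sample 3 lowest and sample 1 highest in both groups.

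The fold changes on the log2 scale were −0.12 for *Syvn1* (95% interval −0.36 to 0.12), −0.03 for *Sel1l* (−0.33 to 0.27) and −0.08 for *Herpud1* (−0.39 to 0.23), with adjusted p values from limma of 0.875, 0.976 and 0.947, and of 0.479, 0.916 and 0.606 with the block. The pairs of the same number followed a like pattern in these 3 genes. In samples 2 and 3, siDerl1 NSCs held 92.6% and 83.1% of the siControl *Syvn1* level, 87.2% and 85.7% of *Sel1l*, and 92.7% and 88.9% of *Herpud1*. In sample 1, where the least *Derl1* was left, the values were 101%, 125% and 103%. With only the samples numbered 2 and 3, a fit added after seeing the data, the log2 fold changes were −0.19, −0.21 and −0.14, and none passed either (adjusted p = 0.476, 0.449 and 0.716). The ratio of *Syvn1* to *Sel1l* TPM, the 2 subunits of the ligase core, lay between 1.13 and 1.25 in siControl samples, and was lowest in siDerl1 sample 1, at 1.0, with overlapping groups (exact p = 0.4 by permutation).

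*Ube2j1* (NM_001106642), the tail-anchored conjugating enzyme that works with Hrd1, was the 1 member with a higher mean in siDerl1 NSCs. It was at 41.0, 48.4 and 45.7 TPM in siControl and at 43.4, 53.7 and 47.2 TPM in siDerl1 samples 1, 2 and 3. Each siDerl1 sample exceeded the siControl sample of its number, by 0.08, 0.15 and 0.05 on the log2 scale, yet the groups overlapped, as sample 2 was highest and sample 1 lowest in both. The log2 fold change of 0.09 (interval −0.16 to 0.34) had an adjusted p of 0.923 from limma and 0.589 with the block. Relative to *Syvn1*, *Ube2j1* was at 0.759, 0.766 and 0.654 in siControl and at 0.797, 0.919 and 0.813 in siDerl1 NSCs. These groups did not overlap (exact p = 0.1 by permutation, adjusted to 0.143 over the 10 ratios compared). Several of those 10 ratios contain *Derl1* and had a low p through the knockdown itself, so the adjusted value lends no support. The ratio of *Os9* to *Edem1* also had an exact p of 0.1 by permutation.

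*Vcp* (NM_053864) encodes p97, the hexameric ATPase that derlins and other membrane proteins bring to the exit site, and that also serves many other ubiquitin-dependent steps. It was at 460.1, 488 and 475 TPM in siControl samples 1, 2 and 3 and at 434, 451 and 449.6 TPM in siDerl1 samples. All 3 siDerl1 values were the lower ones (exact p = 0.1 by permutation, the limit of this design), and the deficit was small and even, with 94.3%, 92.5% and 94.7% of the siControl level in the 3 pairs. Sample 2 was highest and sample 1 lowest in both groups. The log2 fold change was −0.09 (SE 0.05, interval −0.21 to 0.03), with an adjusted p of 0.769 from limma and 0.337 with the block.

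*Edem1* (NM_001305279), a mannosidase-like protein that speeds the disposal of misfolded glycoproteins, had the largest difference after *Derl1*. It was at 42.5, 43.1 and 41.1 TPM in siControl and at 34.7, 38.9 and 38.4 TPM in siDerl1 samples 1, 2 and 3. The groups did not overlap (exact p = 0.1 by permutation, again the limit), and as with *Derl1* the lowest value was that of siDerl1 sample 1, at 81.7% of its siControl partner against 90.2% and 93.4% in the other pairs. The log2 fold change was −0.18 (SE 0.08, interval −0.36 to 0.01), with an adjusted p of 0.754 from limma and 0.329 with the block, so the difference did not pass the test. *Os9* (NM_001007265), the lectin that hands trimmed glycoproteins to Sel1l, was at 429, 442 and 404 TPM in siControl and at 430.1, 450.3 and 395 TPM in siDerl1 samples. Its values overlapped fully and followed the sample number, with sample 2 highest and sample 3 lowest in both groups. The interval of its log2 fold change, from −0.16 to 0.16, was the narrowest after that of *Vcp* and allows a TPM ratio between 0.894 and 1.12.

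**Figure D2:**
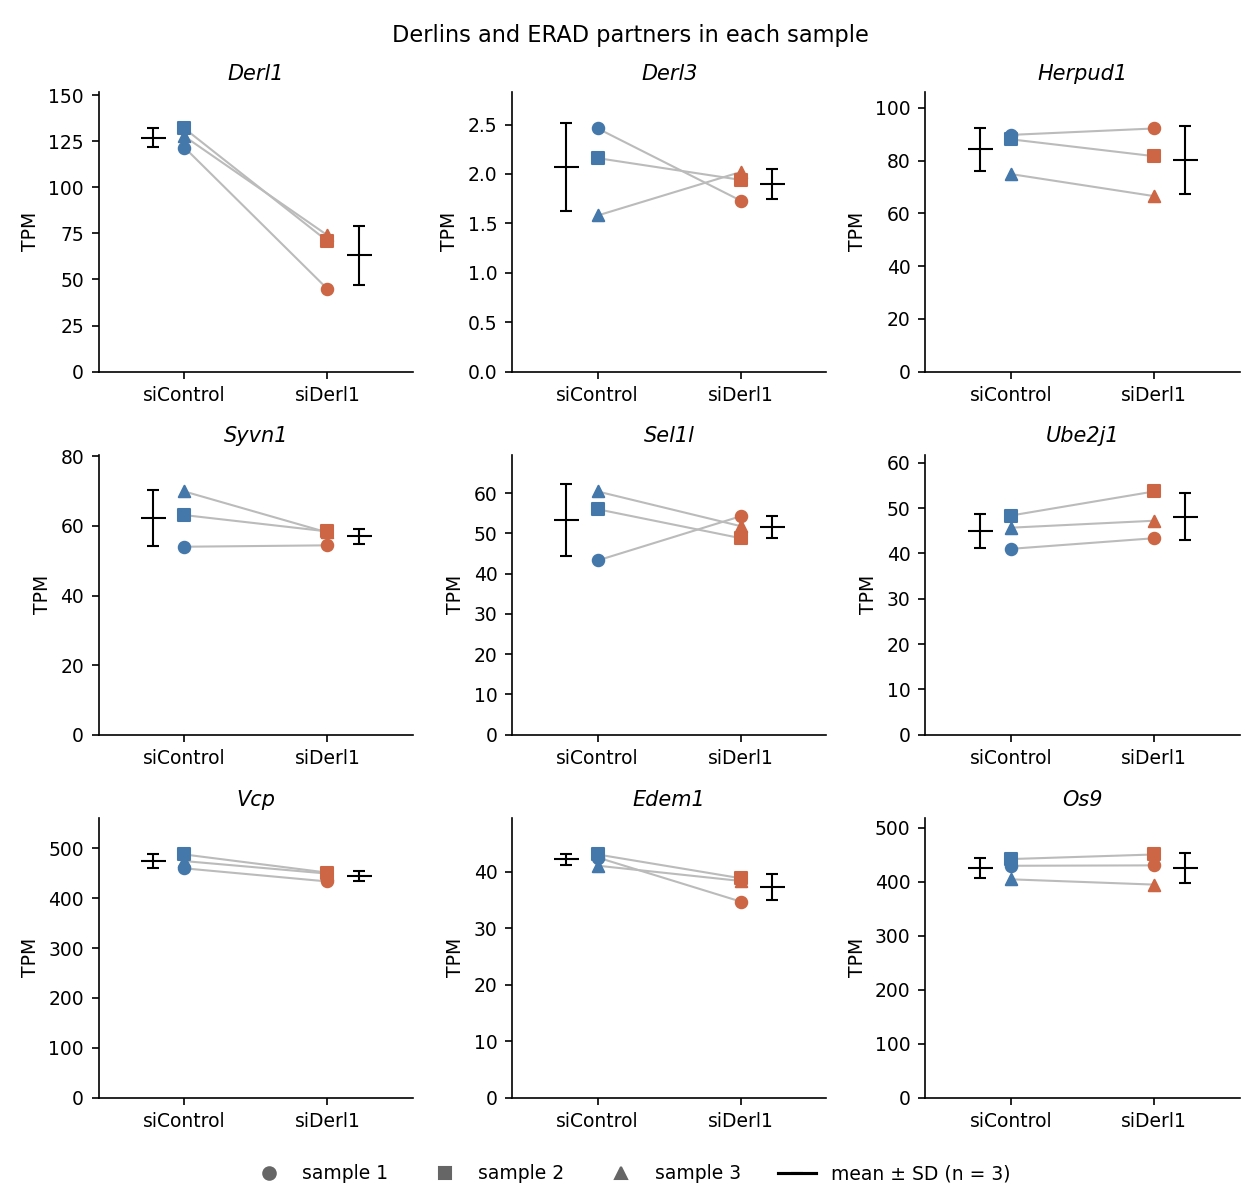
TPM of each member in siControl (blue) and siDerl1 (orange) NSCs, with a marker shape for each sample number, grey lines between samples of the same number and black bars for the mean ± SD (n = 3). The siDerl1 samples of *Derl1*, *Vcp* and *Edem1* all lie below the siControl samples, and the lines of *Ube2j1* all slope up.

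Over the 9 members, 0 had an adjusted p under 0.05 in the fit without the block, against 0% of all tested genes. *Derl1* was the 1 member with an unadjusted p under 0.05, which 6.70% of tested genes had. With the block, *Derl1* was the 1 member past an adjusted p of 0.05, and also the 1 member with an unadjusted p under 0.05, which 15.7% of tested genes had in that fit. Every siDerl1 sample was below every siControl sample in 3 of the 9 members, where 8.52% of tested genes showed this; in either direction the groups did not overlap for 13.6% of genes. Since *Derl1* is the target of the duplex, *Vcp* and *Edem1*, 2 of the other 8, are the count to read against that background. Of these 8, 7 had a lower mean in siDerl1 NSCs, and their median log2 fold change was −0.08, beside −0.02 and 54.8% lower for all tested genes. The interval plot shows that each of the 8 intervals included 0 in the fit without the block, with the lowest bounds at −0.56 for *Derl3* and −0.39 for *Herpud1*. On this scale a change of the size seen for *Derl1* lay outside all 8 of them. For *Derl3*, where the added 1 weighs heavily, the allowed TPM ratio reached down to 0.521, or 0.509 with the block. This is near the ratio of 0.498 seen for *Derl1*.

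**Figure D3:**
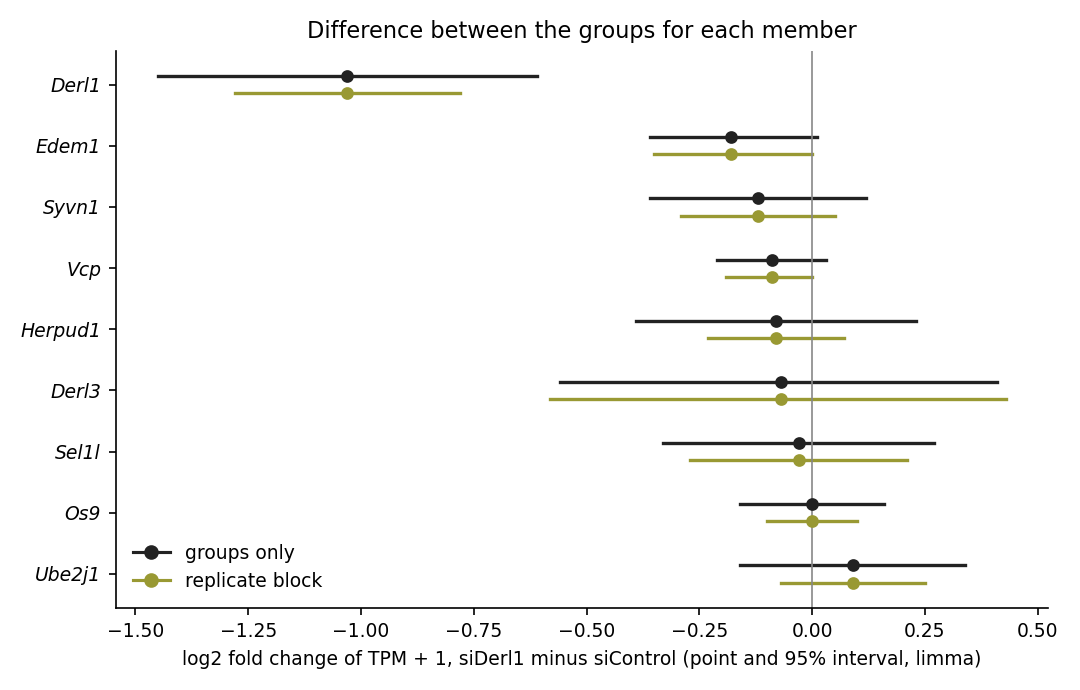
Log2 fold change of TPM + 1 in siDerl1 minus siControl NSCs for each member, as points with 95% intervals from limma, for the groups alone (black) and with the sample number as a block (green). *Derl1* stands at −1.03 with both intervals below 0, and the other 8 points lie between −0.18 and 0.09.

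The ratios of *Derl1* to its partners were compared next. *Derl1* was 2.06 ± 0.214 (SD, n = 3) times as abundant as *Syvn1* in siControl NSCs and 1.10 ± 0.243 (SD, n = 3) times in siDerl1 NSCs. Against *Sel1l* the ratio was 2.42 ± 0.353 and 1.23 ± 0.354. In siDerl1 sample 1 *Derl1* was below both, at 0.824 of *Syvn1* and 0.826 of *Sel1l*, whereas in siDerl1 samples 2 and 3 it was still above both. The ratio of *Vcp* to *Derl1* was nearly the same in the siControl samples, at 3.78, 3.70 and 3.72, and was at 9.67, 6.38 and 6.08 in the siDerl1 samples. For each of these ratios the groups did not overlap, which restates the lower *Derl1* that all of them share. The 8 members other than *Derl1* summed to 1163, 1231 and 1173 TPM in siControl and to 1145, 1185 and 1108 TPM in siDerl1 NSCs. These ranges overlapped, and the sum was lower in all 3 pairs of the same number.

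The other ERAD genes were taken from a list written by role, with no member in it. Of its 82 genes, 78 were matched to the tables and 77 were tested; *Derl2* was among those not analysed here. In siDerl1 NSCs 51 of the 77 (66.2%) had a lower mean and 26 a higher one, where 54.8% of all tested genes were lower. The log2 fold changes lay between −0.33 and 0.32 with a median of −0.04, beside −0.02 for all tested genes. An unadjusted p under 0.05 was found for 4 genes, or 5.19% of the list, beside 6.70% of all tested genes, 2 of them higher and 2 lower. That count was 8 without siControl sample 1, 1 without siControl sample 2 or 3, and 2 without siDerl1 sample 1. None of the 77 had an adjusted p under 0.05, the smallest being 0.704. The share with groups that did not overlap was 15.6%, beside 13.6%. With the block 11 genes, or 14.3%, had an unadjusted p under 0.05, beside 15.7%. Of these 11, 9 were lower, where 917 of the 1624 such genes overall were, and 0 passed after adjustment (smallest adjusted p = 0.0899 from limma). The shares with an unadjusted p under 0.05 were near those of all tested genes in either fit.

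The 4 genes were *Rhbdd2*, *Insig1*, *Tmub1* and *Dnajb9*. *Rhbdd2*, a rhomboid-like protein and thus a distant relative of the derlins, was at 40.7, 39.2 and 43.5 TPM in siControl and at 53.6, 52.9 and 48.0 TPM in siDerl1 samples 1, 2 and 3. All siDerl1 samples were above all siControl samples, with a log2 fold change of 0.32 (SE 0.08, adjusted p = 0.704 from limma, 0.135 with the block). *Rhbdd1*, another rhomboid-like gene of the list, was at −0.19 with overlapping groups. *Insig1*, the sterol-sensing protein that brings a ligase to its clients, was at 229.5, 237 and 236 TPM and at 265, 255 and 250.3 TPM. *Tmub1*, a ubiquitin-like membrane protein that joins ligases to p97, was at 45.2, 49.0 and 49.5 TPM and at 39.8, 42.6 and 40.6 TPM. *Dnajb9*, the luminal cochaperone ERdj4, was at 24.7, 32.2 and 25.9 TPM and at 22.4, 22.4 and 22.2 TPM. In each of these 4 genes the groups did not overlap, 2 in each direction, which their choice by a small unadjusted p favours. Over the whole list the groups did not overlap for 8 lower and 4 higher genes. Over all 10331 tested genes this held for 880 lower and 526 higher ones.

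By role, the p97 cofactors had the lowest median log2 fold change, −0.13 over 8 genes. Of these 6 were lower in mean, where 54.8% of all tested genes were. *Ufd1l* and *Nploc4*, which form the heterodimer that lets p97 grip ubiquitin chains, differed by −0.21 and −0.16 on the log2 scale (adjusted p = 0.765 and 0.763 from limma). *Nploc4* was at 61.9, 67.6 and 72.6 TPM in siControl and at 58.8, 60.5 and 60.4 TPM in siDerl1 samples, groups that did not overlap, while those of *Ufd1l* did. Of the luminal reductases and cochaperones 10 of 12 were lower in mean (beside the same 54.8%), with a median of −0.10. *Dnajc3*, the cochaperone p58IPK, chosen after its values were seen, had the smallest adjusted p of the list with the block, 0.0899, and a log2 fold change of −0.33. *Txndc11*, a thioredoxin-like partner of Edem proteins, differed by −0.26. The ligases (median −0.05 over 7 genes), the lectins and mannosidases (−0.02 over 6) and the deubiquitinases, glycanase and shuttle factors (0.00 over 16) held no gene with an unadjusted p under 0.05. The p97 cofactors, the conjugating enzymes and the proteins that recruit p97 held none either, in each case without the block. With it, 4 of the 12 luminal genes (all lower), 3 of the 11 ligase partners (2 lower), 2 of the 8 p97 cofactors (both lower), 1 of the 3 rhomboid-like genes (higher) and 1 of the 16 deubiquitinases, glycanase and shuttle factors (lower) had one, beside 15.7% of all tested genes. The ligases *Rnf145* and *Rnf139* differed by −0.08 and −0.13, the lectin-related *Man1a2* and *Erlec1* by −0.09 and 0.07, and *Atxn3* and *Usp14*, which edit ubiquitin chains, by −0.23 and −0.15. The proteins that recruit p97 to the membrane had a median of 0.05, with *Svip* at 0.14 and *Ubxn6* at 0.09. Of the conjugating enzymes *Ube2j2*, the paralog of *Ube2j1*, was at 102, 102 and 102 TPM in siControl and at 108, 114 and 109 TPM in siDerl1 NSCs (log2 fold change 0.11, adjusted p = 0.764), and *Ube2g2* differed by −0.13 with overlapping groups.

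**Figure D4:**
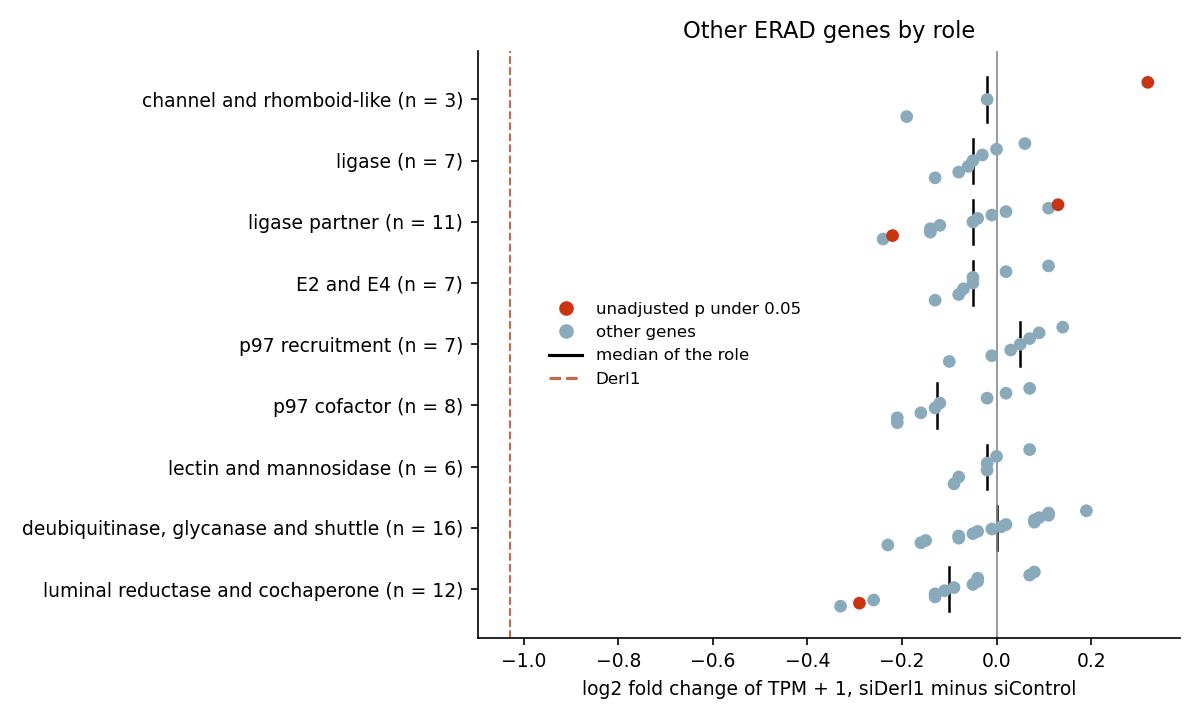
Log2 fold change of TPM + 1 in siDerl1 minus siControl NSCs for the 77 other ERAD genes by role, each point a gene, with a black bar at the median of each role, red for an unadjusted p under 0.05 and a dashed line at *Derl1*. All 77 lie between −0.33 and 0.32, and *Derl1* at −1.03 stands apart.

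Many ERAD genes are targets of the unfolded protein response, so 20 of its readouts were described alongside, of which *Dnajb9* and *Sdf2l1* are also in the ERAD list. Of 10 chaperone-type targets of ATF6 and XBP1, 7 had a lower mean in siDerl1 NSCs, beside 54.8% of all tested genes. Their median log2 fold change was −0.10. *Hyou1*, an ER chaperone of the Hsp70 family, was at 134, 159.8 and 150.2 TPM in siControl and at 100.2, 119.6 and 131 TPM in siDerl1 samples (log2 fold change −0.34, adjusted p = 0.704 from limma, 0.0535 with the block). Of 10 genes of the ATF4 and CHOP branch, 8 had a higher mean, beside 4674 of the 10331 tested genes, and the median was 0.15. *Asns*, asparagine synthetase, was at 88.1, 90.3 and 79.7 TPM and at 96.1, 111 and 102 TPM (log2 fold change 0.26, adjusted p = 0.704 and 0.128), and *Ddit3*, which encodes Chop, differed by 0.17. The largest log2 fold changes of the branch, named after their values were seen, were 0.79 for *Atf3*, 0.55 for *Chac1* and 0.54 for *Trib3*. *Atf3*, a stress-induced transcription factor, was at 43.7, 17.0 and 16.9 TPM in siControl and at 97.9, 32.0 and 21.8 TPM in siDerl1 samples 1, 2 and 3. All 3 genes were higher in each pair of the same number, with overlapping groups, and their adjusted p with the block was 0.0517, 0.148 and 0.144 from limma. An unadjusted p under 0.05 was found for *Hyou1*, *Dnajb9*, *Ddit3* and *Asns*, 4 of the 20, beside 6.70% of all tested genes. With the block it was found for 9 of the 20 (45.0%), 5 higher and 4 lower, beside 15.7%. The 4 lower ones were *Hyou1*, *Dnajb9*, *Xbp1* (log2 fold change −0.24) and *Hspa5* (−0.15). *Xbp1* and *Hspa5*, named after their values were seen, were lower in each pair of the same number, with overlapping groups. After adjustment 0 passed in either fit. For the 4 ERAD members with printed promoter stretches, the log2 fold changes beside these medians were −0.09 for *Vcp*, −0.08 for *Herpud1*, −0.07 for *Derl3* and 0.09 for *Ube2j1*.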

How the data were processed

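Total RNA of 6 samples was sequenced from poly(A)-selected, strand-specific libraries. Per the labels and the methods, the authors used Trimmomatic (0.39) for trimming, STAR (2.7.3a) for mapping to rn6 and RSEM (1.3.2) for estimating expression. The deposited values are TPM with 2 decimals that sum to 1000000 per sample. Such shares keep no depth, so no counting error can be given, and RSEM may split reads between paralogs. Groups and numbers came from the sample titles.

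From these values log2(TPM + 1) was computed and the groups were compared with limma (3.58.1, R 4.3.3; lmFit, eBayes with an intensity trend, Benjamini-Hochberg adjustment) over genes whose mean reached 1 TPM. The fit was also run on simulated data with random noise, and no result here rests on that run. Exact permutation tests over samples were two-sided. Deviations from the group means correlated at 0.70, 0.35 and 0.51 between siControl and siDerl1 samples numbered 1, 2 and 3, so that the numbers were taken to pair the samples, although samples 2 and 3 also correlated across numbers, at 0.34 and 0.25. The blocked value is given beside a result where it changes a call, and beside each adjusted p of a member. Alternatives were a pseudocount of 0.1, no filter, a filter at a mean of 5 TPM, scaling by median-of-ratios, no intensity trend, the replicate block (also without the trend or the filter) and each sample left out. The fit with only samples numbered 2 and 3 was added after seeing the data.

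The members and lists were chosen with earlier results of these data known. Named genes were the 9 members and the 5 genes most like *Derl1*. Of the ERAD and unfolded protein response lists, the 2 of each role with the smallest p were named. So was any gene with an adjusted p under 0.05 in either fit. *Dnajc3*, *Atf3*, *Chac1*, *Trib3*, *Xbp1*, *Hspa5* and the markers were named after their values were seen. Promoter windows are RefSeq's, of GRCr8, and no coordinates were converted.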

Additional observations from a re-analysis of the deposited data

How the results depend on the processing

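The adjusted p under 0.05 for *Derl1* came only from the replicate block (log2 fold change −1.03, 1 member and 57 genes past the threshold) and from the 4 samples numbered 2 and 3 (−0.83, 1 member and 35 genes). With the block but no intensity trend 0 genes passed, and with the block but no filter on low values 2 genes did, *Derl1* not among them (adjusted p = 0.229 and 0.104 from limma); the cause was not tested. In the other alternatives 0 members and 0 genes passed. The log2 fold change of *Derl1* was lower in all of them, between −1.16 and −0.80 with 1 sample left out. *Syvn1*, *Ube2j1*, *Vcp* and *Edem1* kept their direction in all 15 alternatives, and none of the 8 partners passed in any. Values near 0 changed sign for *Os9*, *Sel1l*, *Herpud1* and *Derl3*. *Os9* (−0.0018) was at 0.0138 with median-of-ratios scaling and between −0.0445 and 0.0507 with 1 sample left out. *Sel1l* then ranged from −0.17 to 0.0656, *Herpud1* from −0.19 to 0.0469 and *Derl3* from −0.19 to 0.0194, and *Derl3* was at 0.0615 with samples numbered 2 and 3 only. The count of other ERAD genes with an unadjusted p under 0.05, 4, became 11 with the replicate block, 8 with the block and no trend, 12 with the block and no filter, and 7 with samples numbered 2 and 3. With 1 sample left out it ranged from 1, without siControl sample 2 or 3, to 8, without siControl sample 1, and it was 2 without siDerl1 sample 1. With the block *Sdhaf3*, *Slc25a53* and *Gfap* also passed, and no other call of a member or of a listed ERAD or unfolded protein response gene changed. The depth is unknown, and 3 samples a group cannot reach an exact p below 0.1.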
